A study of Mus musculus with 6 samples.

Results

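Mast cells and basophils store proteases in secretory granules, and the genes described here are those of the mast cell carboxypeptidase (Cpa3), the tryptases (Tpsb2, Tpsab1), the chymases and their basophil relative (Cma1, Mcpt4, Mcpt8), the growth factor receptor Kit and the histamine-forming enzyme Hdc. They were chosen as the probes that carry one of these 8 gene symbols and have a value on at least 4 of 6 arrays. The array carried a probe named for 6 of the 8, and 5 of these met the minimum, out of 11629 tested probes that stood for 9773 named genes. Cpa3 and Tpsb2 had values on 5 arrays, Tpsab1, Mcpt8 and Kit on 6, and Cma1 on 3. Mcpt4 and Hdc are not analysed here.

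Each of the 6 two-colour arrays set amplified lung RNA of 1 C57 mouse, sensitized to ovalbumin (OVA) and then challenged with it, against 1 shared pool of amplified lung RNA from control C57 mice. Ovalbumin sensitization and challenge produces allergic inflammation of the airways. The sources used here state neither age, sex, dose and timing nor the number of mice in the pool. Whole lung was measured, so fewer cells of a type and less RNA per cell cannot be told apart.

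Mast cells live in tissue for long periods, depend on Kit and its ligand, and release histamine, heparin-like proteoglycans and proteases when antigen crosslinks IgE on the high-affinity IgE receptor. Tryptases and chymases are serine proteases, which in mice are used to tell mast cell subsets apart, whereas Mcpt8 is a serine protease of mouse basophils, circulating granulocytes that also carry the IgE receptor. Both cell types make histamine with histidine decarboxylase, and both are known for their part in IgE-driven allergic responses.

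The values are log ratios of the 2 channels, read as log2, and the labels do not settle which channel is on top. Signs are therefore those of the deposited ratio and are not assigned to OVA mice or pool. For orientation, Clca1, Retnla and Saa3, known response genes of inflamed airways, lay on the negative side at -3.06 ± 1.95, -2.81 ± 2.11 and -3.85 ± 2.15 (SD, n = 6 each). In mouse 3 these 3 genes were at 0.84, 1.00 and -0.01, and its array correlated with the others at 0.168 to 0.417 across probes, against 0.492 to 0.861 among the other 5 arrays. Probes are not independent replicates. Between 10922 and 13132 probes had a value in each mouse. Of the 7 lung epithelial markers listed 6, among them Sftpc and Scgb1a1, had values on all arrays.

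No member passed the test. Of the 5 members measured, 0 had an adjusted p under 0.05 (limma, Benjamini-Hochberg over all 11629 probes), where 24.4% of all tested probes did, and 1, Cpa3, had an unadjusted p under 0.05, where 39.2% did. The means of the mast cell proteases lay between 0.09 and 0.17 on the log2 scale, with Mcpt8 and Kit on the other side of 0. The median of the 5 members was 0.09, against -0.003 over all tested probes. Sequences spotted 17 times had a median SD of 0.13 within an array, similar in size to the means of the mast cell proteases. Signal over background is unknown for the spots of the members, so a ratio near 0 does not show that a transcript was unchanged. The 95% intervals of all 5 means lay within a 2-fold difference either way if the logarithm has base 2. The level of a gene is not in these ratios, so the members cannot be ranked by abundance.

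**Figure D1:**
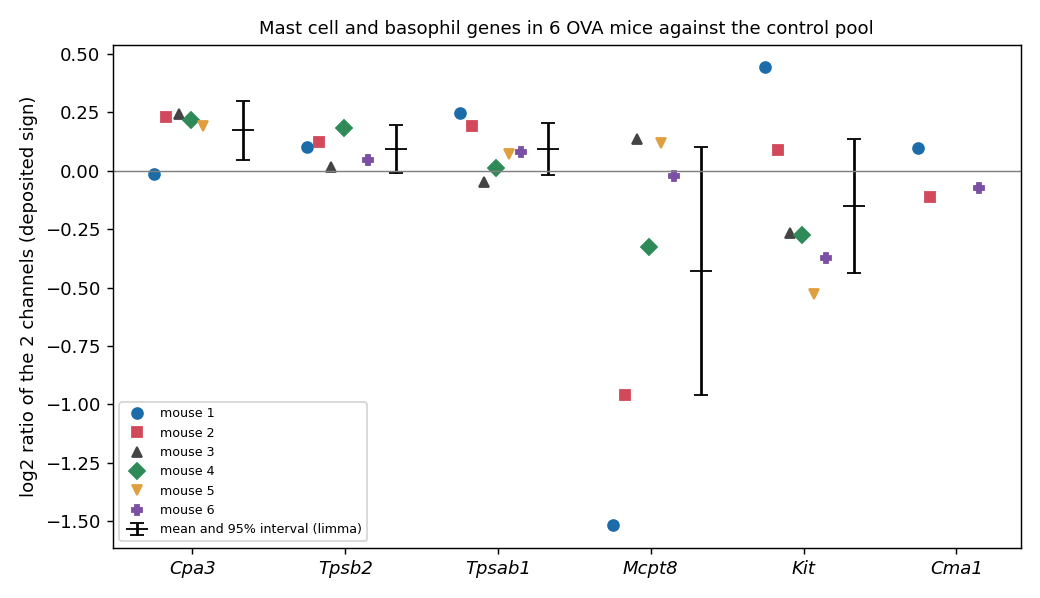
Log2 ratio (deposited sign, y axis) of each member in each of the 6 OVA mice against the shared control pool, with the mean and its 95% interval from limma for members on at least 4 arrays. The tryptases and Cpa3 form tight clusters just above 0, while Mcpt8 runs from -1.51 in mouse 1 to 0.14 in mouse 3, and Kit from -0.53 in mouse 5 to 0.44 in mouse 1.

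Cpa3, the metallocarboxypeptidase that trims peptides inside and outside mast cell granules, had log2 ratios of -0.01, 0.23, 0.24, 0.22 and 0.19 in mice 1 to 5 and no value in mouse 6. Mice 2 to 5 lay close together and mouse 1 stood near 0. The mean was 0.17 ± 0.11 (SD, n = 5), 1.13-fold apart from the pool with a 95% interval of 0.05 to 0.30, and it narrowly missed the threshold (limma, adjusted p = 0.0554). Without mouse 1 the mean was 0.22 and passed (adjusted p = 0.0257), and it passed with array weights (adjusted p = 0.0221), within a range of 0.0221 to 0.152 over the alternatives. An exact sign-flip permutation test of the 5 values gave p = 0.125, where 0.0625 is the smallest it allows.

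The tryptases lay nearer to 0. Tpsb2, which encodes the tetramer-forming tryptase mouse mast cell protease 6, was at 0.10, 0.12, 0.02, 0.18 and 0.05 in mice 1, 2, 3, 4 and 6 and had no value in mouse 5. All 5 values were positive and none exceeded 0.18, with a mean of 0.09 ± 0.07 (SD, n = 5, limma adjusted p = 0.155) and an interval of -0.01 to 0.20. Tpsab1, the gene of mouse mast cell protease 7, was at 0.25, 0.19, -0.05, 0.01, 0.07 and 0.08 in mice 1 to 6. Mice 1 and 2 were highest and mouse 3 lowest, and the mean was 0.09 ± 0.11 (SD, n = 6, limma adjusted p = 0.198) with an interval of -0.02 to 0.20. The RefSeq gene table of assembly GRCm38.p6, a C57BL/6J genome, lists Tpsab1 as a transcribed pseudogene, and C57BL/6 mice are known to lack the protein. Tpsb2 and Tpsab1 are close paralogs that lie side by side, and the probe sequences are not used here, so whether each spot also bound the other transcript was not tested.

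Cma1, the chymase known as mouse mast cell protease 5, had values in 3 mice only, 0.10 in mouse 1, -0.11 in mouse 2 and -0.07 in mouse 6. These lie on both sides of 0, and the gene entered no test. The mast cell genes of the IgE receptor, Fcer1a and Ms4a2, had values on 2 arrays and on 0. Of the 10 mast cell markers listed, 4 were therefore tested, namely Cpa3, Tpsb2, Tpsab1 and Kit.

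Mcpt8, the basophil protease, had log2 ratios of -1.51, -0.96, 0.14, -0.33, 0.12 and -0.02 in mice 1 to 6. Mice 1 and 2 were far on the negative side, mouse 4 was less so, and mice 3, 5 and 6 lay near 0. The mean was -0.43 ± 0.67 (SD, n = 6), 1.35-fold apart, with an interval of -0.96 to 0.10 (limma, adjusted p = 0.205). Its SD was above that of 97.9% of the 8663 probes measured in all mice, whereas those of Tpsab1 and Kit were above 29% and 88.1%. Without mouse 1 the mean was -0.21, and without mouse 3 it was -0.54, with adjusted p between 0.143 and 0.41 over the alternatives. An exact sign-flip permutation test gave p = 0.219, where 0.0312 is the smallest that 6 mice allow.

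The other basophil markers did not follow Mcpt8 in size. Cd200r3, a basophil receptor, was at -0.31, -0.24, -0.05, -0.25, 0.01 and 0.16 in mice 1 to 6 and had a second probe with a mean of -0.02. Itga2, an integrin of basophils, natural killer cells and platelets, was at 0.23, 0.41, -0.22, -0.10, 0.06 and -0.09, so mice 1 and 2 lay on the other side of 0 from Mcpt8. Neither passed (limma, adjusted p = 0.258 and 0.718), and the mean of Itga2, 0.05, changed sign to -0.025 without mouse 2. Prss34, a further basophil protease, is not analysed here.

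Markers of several other cell types were also away from 0, and the mice that stood out differed between them. Of all tested probes 24.4% passed. The 2 tested eosinophil markers and the 3 tested B cell markers did not pass. Their means per mouse, where there was a value, ran from -0.135 to 0.09 and from -0.51 to 0.22. Of 4 macrophage markers 2, Aif1 and Cd68, were tested and 1, Aif1, passed, on the negative side. Their mean per mouse ran from -2.06 to 0.30, lowest in mice 1 and 2. Aif1 was at -3.60 and -3.05 in mice 1 and 2, and Cd68 at -0.52 and -0.55. Cd68 had a mean of -0.23 and did not pass (limma, adjusted p = 0.171). Both tested T cell markers of 5, Cd3e and Cd8a, were lowest in mice 1 and 2 too, with a mean of -0.53 and -0.48 there and none past the threshold. Of 5 neutrophil markers 4 were tested, with means of -0.91, -0.57, 0.36, 0.17, -0.36 and 0.17 in mice 1 to 6. Of these Mmp8 and Mpo passed and were negative in every mouse, whereas S100a8 and S100a9 had values on both sides of 0 and did not pass. Of 5 endothelial markers 3 were tested and 2, Tek and Ramp2, passed on the positive side. The other, Pecam1, had a mean of -0.36 and did not pass. It was at 0.74 in mouse 1 and negative in mice 2 to 6, down to -1.04 in mouse 6. The mean of the 3 was 1.45 and 0.89 in mice 1 and 2 and 0.06 to 0.54 in the others. Of the 6 lung epithelial markers tested 2 passed on the positive side, among them Scgb1a1 at 1.38 (limma, adjusted p = 0.0028), and 2 on the negative side. Markers of heart muscle, 5 of 5 tested positive and past the threshold, averaged 2.31, 2.02, 0.31, 1.42, 0.57 and 1.37 in mice 1 to 6. Of 4 tested adipocyte markers 3 passed on the positive side, with means of 2.38, 1.66, 0.75, 1.82, 1.02 and 2.63 in mice 1 to 6. The other, Fabp4, was at 0.26, 0.02, 0.39 and 0.10 in mice 2 to 5. It had no value in mice 1 and 6, so their means leave it out and are not like those of the other mice. The part of these in the values of Mcpt8, Cpa3 and Kit was not tested.

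**Figure D2:**
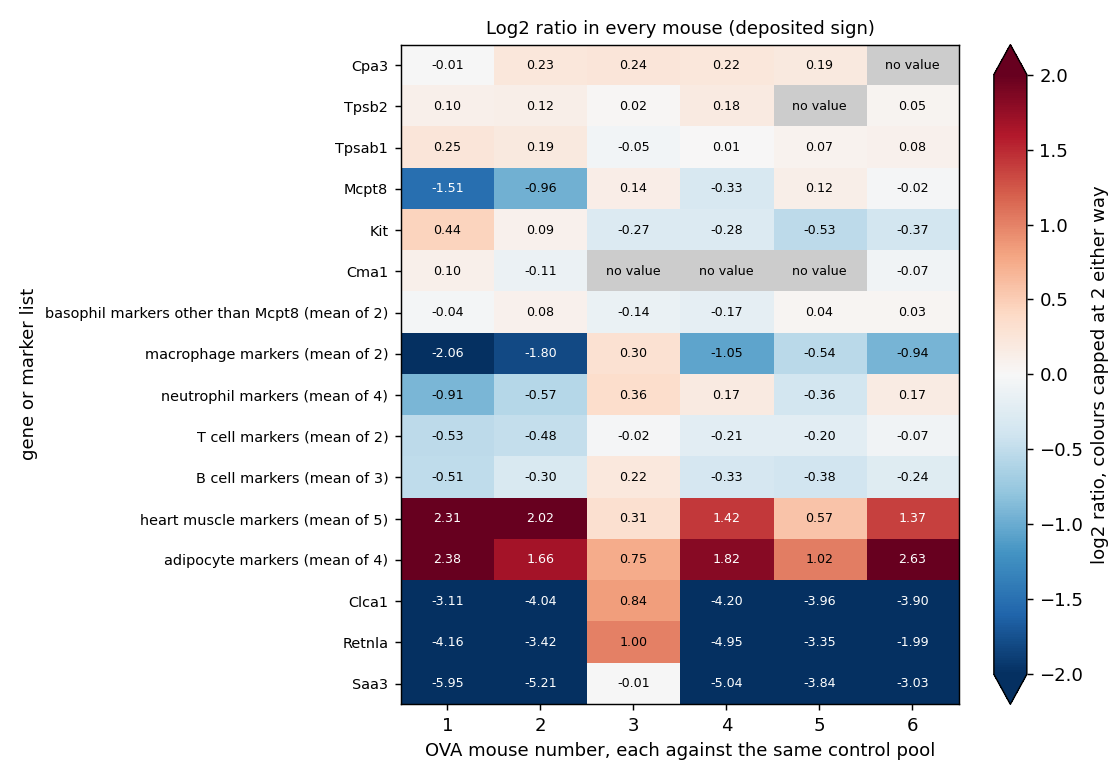
Log2 ratio (deposited sign) in each of the 6 OVA mice for the 6 members with a probe, for the mean of marker lists over the markers with a value in that mouse, and for 3 airway response genes. The rows of Cpa3 and the tryptases are nearly blank in every mouse, while Mcpt8 is at -1.51 and -0.96 in mice 1 and 2. The mean of the 2 macrophage markers, Aif1 and Cd68, is at -2.06 and -1.80 there, with Cd68 alone at -0.52 and -0.55.

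The difference between the basophil protease and the mast cell proteases was taken within each array, which does not depend on how the array was centred. The means of the single genes were known from earlier results of these data when this comparison was set. Cma1, with values on 3 arrays, and Mcpt4, not analysed here, were not included. In the 4 mice in which Mcpt8, Cpa3, Tpsb2 and Tpsab1 all had values, Mcpt8 minus the mean of the other 3 was -1.63 in mouse 1, -1.14 in mouse 2, 0.07 in mouse 3 and -0.47 in mouse 4. Mcpt8 was therefore lower in 3 of 4 mice, with a mean difference of -0.79 ± 0.74 (SD, n = 4, exact two-sided sign-flip permutation p = 0.25). With 4 mice this test cannot go below 0.125. Against Tpsab1 alone, measured in all 6 mice, the difference was -0.52 ± 0.77 (exact permutation p = 0.188). Tpsab1 is listed as a transcribed pseudogene, and whether its spot also bound Tpsb2 was not tested. Against the proteases with a value in each mouse, a choice made after seeing the data, the difference was -0.54. It was negative in 5 of 6 mice (exact permutation p = 0.0938). None of these reached 0.05, so a difference between the basophil and the mast cell proteases was not shown.

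Kit, the receptor tyrosine kinase for stem cell factor, which mast cells need to survive and which progenitors and other cells also carry, was at 0.44, 0.09, -0.27, -0.28, -0.53 and -0.37 in mice 1 to 6. Mice 1 and 2 were positive, on the other side of 0 from Mcpt8, and the other 4 were negative. The mean was -0.15 ± 0.35 (SD, n = 6) with an interval of -0.44 to 0.13 (limma, adjusted p = 0.394). Without mouse 1 it was -0.27, with an adjusted p of 0.0672 in a range of 0.0672 to 0.697 over the alternatives. The Kit ligand gene Kitl had a value on 0 arrays. The transcription factors of the lineage, Gata2 at 0.25 ± 0.40 and Mitf at -0.12 ± 0.07, did not pass either (limma, adjusted p = 0.22 and 0.062, n = 6 each). In single mice Gata2 was, like Kit, highest in mouse 1, at 0.88, and negative in mouse 3, at -0.28. In mice 4, 5 and 6, where Kit was negative, Gata2 was at 0.01, 0.42 and 0.11. Mitf was negative in 6 of 6 mice and passed with array weights (adjusted p = 0.0496, in a range of 0.0496 to 0.146 over the alternatives).

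By the root mean square difference of log2 ratio over the 6 mice, the profiles nearest to Mcpt8 were those of Itln1 (0.145), Tapbp (0.187) and Btk (0.206). Each of the 3 was lowest in mouse 1, at -1.46, -1.27 and -1.38, and next lowest in mouse 2. The profiles nearest to Kit were those of Gucy1a1 (0.0987), Slmap (0.107) and Lrguk (0.119), which were all positive in mice 1 and 2 and negative in the other 4. None of the 6 passed the test. These are descriptions over 6 arrays that share 1 pool.

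The genes beside the members in the genome were compared next, a choice made after their values were seen. Cma1, Mcpt4 and Mcpt8 belong to 1 cluster of granule serine proteases that reaches, in the order of the RefSeq table, from Cma1 through Cma2, Mcpt1, Mcpt2, Mcpt9, Mcpt4, Mcpt8 and Ctsg to the granzymes ending with Gzmb. Of its 16 genes 10 had a probe, 5 were tested and 0 passed, where 24.4% of all tested probes did. Mcpt2, a chymase of mucosal mast cells, was at -0.60 in mouse 1, -0.14 in mouse 2, -0.10 in mouse 3, -0.11 in mouse 4 and -0.13 in mouse 6, with a mean of -0.21 ± 0.22 (n = 5, limma adjusted p = 0.112). It was negative in 5 of 5 mice and, like Mcpt8, lowest in mouse 1. Cma2, Mcpt9 and the granzyme gene Gzmn had means of 0.02, 0.05 and -0.02. Cma2 and Mcpt9 stayed within 0.101 of 0 in every mouse, while Gzmn was at -0.31 in mouse 1 and had no value in mouse 2. The mean of Gzmn changed sign under 3 alternatives and carries no direction.

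The tryptase cluster of 6 genes, from Prss34 to Tpsg1, had 3 tested members and 1 past the threshold, beside the same 24.4% of all probes. Tpsg1, which unlike its neighbours encodes a tryptase anchored in the membrane, was at -0.92, -0.73, 0.05, -0.64, -0.29 and -0.46 in mice 1 to 6. It was negative in every mouse but mouse 3, with a mean of -0.50 ± 0.34 (SD, n = 6), 1.41-fold apart (limma, adjusted p = 0.0234). Its neighbour Tpsb2 was positive in each of the 5 mice with a value. The call of Tpsg1 was lost without mouse 2, mouse 4 or mouse 6 (mean -0.45, -0.47 and -0.51), with adjusted p between 0.00535 and 0.0758 over the alternatives.

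**Figure D3:**
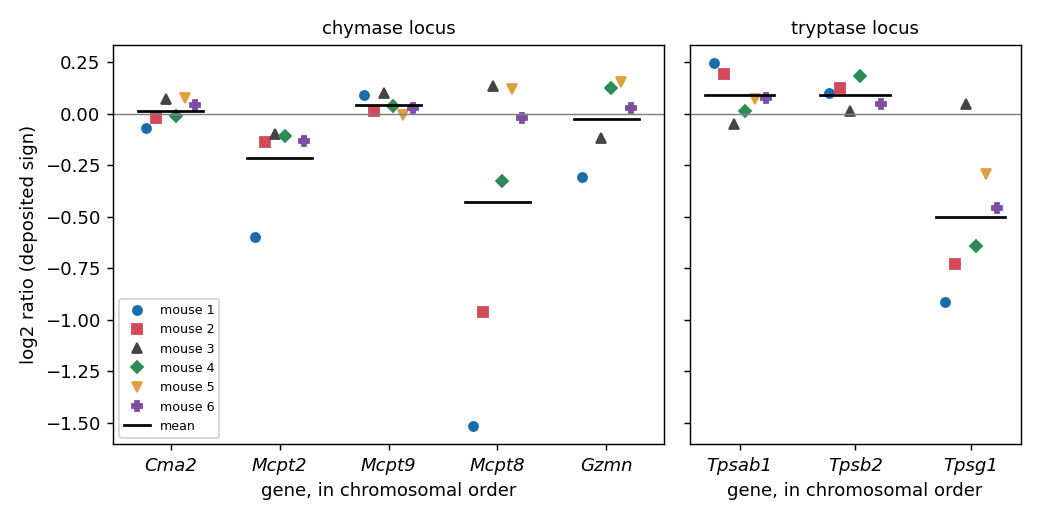
Log2 ratio (deposited sign, y axis) in each OVA mouse for the tested genes of the chymase and the tryptase cluster, in chromosomal order, with the mean as a bar. Tpsg1 lies below 0 in 5 of 6 mice, with a mean of -0.50, beside Tpsab1 and Tpsb2 at 0.09 each, and Mcpt8 spreads from -1.51 to 0.14 between Mcpt9 and Gzmn.

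The other genes of the pathway were taken from 7 lists by role, 157 genes in all, of which 125 had a probe and 89 were tested. Of these 31 passed the threshold, 25 negative and 6 positive, or 34.8%, beside the 24.4% of all probes, of which 12.3% were negative and 12% positive calls. The lists were drawn up with earlier results of these data known, and many of their genes are also used by macrophages, lymphocytes and epithelium. The median of the means was -0.12, against -0.003 over all probes. Without mouse 3, 34 of 84 tested genes passed, where 27.1% of all probes did. Of the 31 calls 13 held without each mouse in turn, and 9 of these 13 held under the other alternatives run as well. Without mouse 2, 14 of 85 tested genes passed, where 12.7% of all probes did, and without mouse 4, 16 of 83, where 12.6% did. With unmoderated variances 11 of the 89 tested genes passed, all of them among the 31 calls, where 12.4% of all probes did. These 11 were Ace, Adora3, Csf2rb2, Ctsc, Enpp3, Gzmm, Lcp2, Lilrb4a, Ndst2, Serpina3n and Tslp. Every other call among the 31 ended with unmoderated variances.

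Among 14 tested proteases related to the members the median was 0.02, and 2 passed, both negative, where 24.4% of all tested probes passed. Beside Tpsg1 this was Gzmm, the granzyme of natural killer cells, at -0.17 ± 0.09 (limma, adjusted p = 0.0278), whose call ended when any of mice 1 to 5 was left out (mean -0.21 to -0.16 over single omissions, adjusted p up to 0.082). Granzymes Gzmb and Gzmc and cathepsin G (Ctsg) had values on 2, 3 and 0 arrays.

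Genes of the IgE receptor and its signalling had a median of -0.23, and 6 of 15 passed, all negative, where 24.4% of all tested probes passed. Fcer1g, the gamma chain shared by IgE and IgG receptors, was at -1.44, -1.27, 0.61, -0.90, -0.74 and -0.45 in mice 1 to 6, with a mean of -0.70 ± 0.73 that did not pass (limma, adjusted p = 0.0772). It was negative in every mouse but mouse 3, without which it was -0.96 and passed (adjusted p = 0.0053, in a range of 0.0053 to 0.19 over the alternatives), as it did with array weights (adjusted p = 0.0356). The inhibitory receptors Lilrb4a and Fcgr2b, both of which restrain mast cell activation, were at -1.73 ± 0.88 and -1.14 ± 0.69 (adjusted p = 0.00906 and 0.0142, n = 6), with Lilrb4a 3.31-fold and Fcgr2b 2.21-fold apart. In mouse 3 they were at -0.11 and -0.05. The adaptor Lcp2, which links the receptor kinases to phospholipase C, was at -0.58 ± 0.22 and negative in 6 of 6 mice (adjusted p = 0.00552). These 3 calls held without each mouse, and that of Fcgr2b ended with unmoderated variances (adjusted p = 0.0585). Those of the adaptor Lat2 at -0.54, the phosphatase gene Inpp5d at -0.21 and the lipid kinase gene Pik3cd at -0.25 ended when any of mice 1, 2, 4, 5 or 6 was left out (adjusted p up to 0.1, 0.0935 and 0.121; mean of Lat2 -0.37 without mouse 2), and the second probe of Pik3cd did not pass, at -0.08. The call of Lat2 also ended without centring, with a minimum of 3 arrays, array weights, robust moderation or no moderation (adjusted p up to 0.136). That of Pik3cd also ended with scaled or quantile-normalized arrays or no moderation (adjusted p up to 0.0983), and that of Inpp5d with no moderation (adjusted p = 0.0691). The kinases Btk and Syk, central to the pathway, did not pass, with Btk at -0.45 ± 0.63 and values of -1.38 and -0.88 in mice 1 and 2. Syk was at -0.14 ± 0.18 (n = 4, limma adjusted p = 0.24) and had no value in mice 1 and 2. Without mouse 3, Btk was at -0.62 and passed (limma, adjusted p = 0.0476, in a range of 0.0476 to 0.337 over the alternatives).

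**Figure D4:**
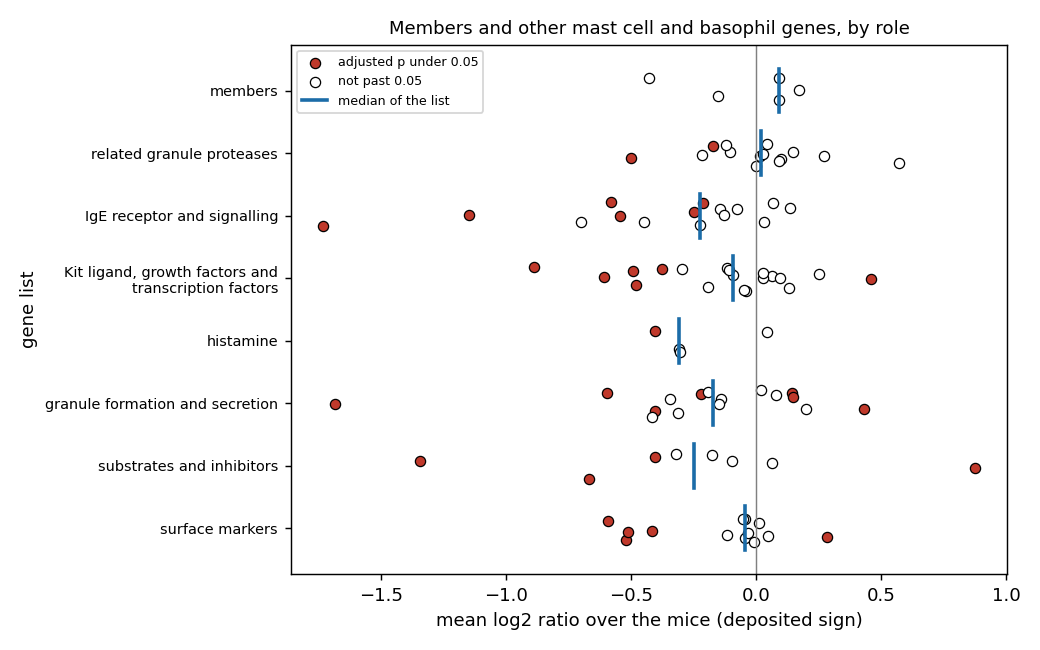
Mean log2 ratio over the mice (x axis, deposited sign) of each tested member and of each tested gene of the 7 role lists, filled where the limma adjusted p is under 0.05, with the median of each group as a vertical line. The 5 members are open points between -0.43 and 0.17, while the lists reach -1.73 for Lilrb4a and 0.87 for Ace.

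Among growth, survival and transcription factors of the lineages 6 of 19 passed, 5 negative and 1 positive, where 24.4% of all tested probes passed. The median was -0.09. Csf2rb2, the mouse beta subunit of the interleukin 3 receptor, was at -1.29, -1.13, -0.02, -0.94, -0.83 and -1.09 in mice 1 to 6, with a mean of -0.89 ± 0.45 (limma, adjusted p = 0.00954). It was negative in every mouse, but close to 0 in mouse 3. The positive gene was Tslp, an epithelial alarmin that promotes basophil growth, at 0.46 ± 0.16 and positive in 6 of 6 mice (adjusted p = 0.00547). Both calls held under every alternative run. The alarmin Il33, an activator of mast cells, was at -0.61 ± 0.39 (n = 5, adjusted p = 0.0264). Its call ended without mouse 2 or mouse 4 and with unmoderated variances (adjusted p = 0.0946). The transcription factor genes Bhlhe40 and Cebpa were at -0.49 and -0.48 and the GTPase gene Nras at -0.37 (adjusted p = 0.0252, 0.017 and 0.0202). The call of Bhlhe40 ended without mouse 1, 2, 4 or 6, that of Cebpa without mouse 2 and that of Nras without mouse 2 or 5, at adjusted p of up to 0.0718, 0.053 and 0.0548. The call of Cebpa also ended with quantile-normalized arrays (adjusted p = 0.0616). With unmoderated variances the calls of Bhlhe40, Cebpa and Nras ended (adjusted p = 0.0792, 0.0613 and 0.0651).

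Of the histamine genes 4 were tested, and with Hdc and the vesicle transporter Slc18a2 not analysed here none of them reports on synthesis or storage. Hnmt, which inactivates histamine by methylation, was at 0.04 ± 0.22, with mouse 2 lowest at -0.33 and mouse 5 highest at 0.24 (limma, adjusted p = 0.728). Aoc1, the diamine oxidase that degrades extracellular histamine, was at -0.31 ± 0.31 and negative in 6 of 6 mice, with -0.89 in mouse 1 and -0.01 in mouse 3 (adjusted p = 0.0768, in a range of 0.0487 with array weights to 0.166 over the alternatives). The organic cation transporter Slc22a2 was at -0.30 ± 0.35 (adjusted p = 0.105). The aldehyde dehydrogenase gene Aldh7a1 was the 1 call among the 4, where 24.4% of all tested probes passed. It was at -0.40 ± 0.32 (adjusted p = 0.0382). The call ended without mouse 1, 2, 4 or 6 (adjusted p up to 0.109) and with unmoderated variances (adjusted p = 0.101). The 4 histamine receptor genes, Hrh1 to Hrh4, had a value on 0 arrays.

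Genes of granule formation, storage and secretion had a median of -0.17 and 7 calls among 16, 4 negative and 3 positive, where 24.4% of all tested probes passed. Ctsc, the dipeptidyl peptidase that removes the activation dipeptide from chymases, granzymes and cathepsin G, was at -1.32, -2.32, -0.67, -1.53, -1.89 and -2.37 in mice 1 to 6. It was negative in every mouse, mouse 3 included, with a mean of -1.68 ± 0.65, 3.21-fold apart (limma, adjusted p = 0.00516). Srgn, the proteoglycan core on which mast cell proteases are stored, was at -1.20, -0.67, -0.34, -0.73, -0.16 and -0.46, with a mean of -0.59 ± 0.36 (adjusted p = 0.0161). Ctsc and Srgn are also made by macrophages and lymphocytes, and in whole lung the source of the transcript is not measured. The membrane fusion proteins were split, with Snap23 at -0.41 and Vamp7 at -0.22 on the negative side and Vamp8 at 0.43 on the positive one (adjusted p = 0.0213, 0.0387 and 0.0139). The sulfotransferase gene Ndst2, which mast cells need for heparin, and the granule GTPase gene Rab3d were at 0.15 each (adjusted p = 0.0302 and 0.0443). Of the 7 calls, those of Ctsc and Vamp8 held without each mouse, and that of Vamp8 ended with unmoderated variances (adjusted p = 0.0526). Those of Srgn and Snap23 ended without mouse 2 or mouse 4, and those of Ndst2 and Vamp7 when any of mice 2 to 6 was left out. That of Rab3d ended when any mouse but mouse 3 was left out. Adjusted p in these omissions was up to 0.116. With unmoderated variances the calls of Srgn, Snap23, Vamp7 and Rab3d ended too (adjusted p = 0.0608, 0.0686, 0.0831 and 0.0607).

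Among substrates, inhibitors and receptors of the proteases 4 of 8 passed, 3 negative and 1 positive, where 24.4% of all tested probes passed. The median was -0.25. Serpina3n, a secreted inhibitor of serine proteases, was at -1.54, -1.84, -0.29, -1.69, -0.95 and -1.76 in mice 1 to 6, with a mean of -1.34 ± 0.61, 2.54-fold apart (limma, adjusted p = 0.00677). Slpi, an airway inhibitor of leukocyte serine proteases, was at -0.67 ± 0.41 (adjusted p = 0.016). Both were negative in 6 of 6 mice and least so in mouse 3. Ace, the endothelial enzyme that forms angiotensin II, as chymases also do, was at 0.87 ± 0.17 and positive in 6 of 6 mice, between 0.63 and 1.05 (adjusted p = 0.00163). Vip, a neuropeptide that mast cell proteases can cleave, was at -0.40 ± 0.28 (adjusted p = 0.0255). The call of Vip ended without mouse 2, 4, 5 or 6 (adjusted p up to 0.0695), and the other 3 held without each mouse. With unmoderated variances the calls of Vip and Slpi ended (adjusted p = 0.0779 and 0.0612).

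Of 13 other surface markers 5 passed, 4 negative and 1 positive, where 24.4% of all tested probes passed. The median was -0.05. The inhibitory receptor Cd200r1 and the adenosine receptor Adora3, which enhances mast cell degranulation in mice, were at -0.59 ± 0.33 and -0.51 ± 0.14 (limma, adjusted p = 0.013 and 0.0033). Adora3 was negative in 6 of 6 mice, between -0.63 and -0.31. Enpp3, the ectoenzyme CD203c used as an activation marker of human basophils, was at 0.28 ± 0.08 and positive in 6 of 6 mice, between 0.20 and 0.42 (adjusted p = 0.00597). These 3 calls held without each mouse, and that of Cd200r1 ended with unmoderated variances (adjusted p = 0.0533). The integrin Itga4 and the interleukin 18 receptor Il18r1 were at -0.52 and -0.41 (adjusted p = 0.0291 and 0.0276). The call of Itga4 ended without mouse 2, 4, 5 or 6 and that of Il18r1 without mouse 1, 2, 3 or 4, at adjusted p of up to 0.0856 and 0.0742. That of Il18r1 also ended with quantile-normalized arrays (adjusted p = 0.0653). With unmoderated variances the calls of Itga4 and Il18r1 both ended (adjusted p = 0.087 and 0.0816).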

How the data were processed

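The deposited values are 1 log ratio per spot and array, here read as log2 ratios of an OVA mouse's channel and the control pool's. Background correction, normalization, spot filter, dyes, direction and log base: none of these is given in the sources used here. With a natural logarithm, each log2 value would be 1.44 times as large. Probes were named from the platform annotation and a RefSeq gene table (GRCm38.p6, names and gene order only): of 17280 probes 14722 had 1 symbol, 1 had several and 2557 none, and 14450 symbols were found in the table. Arrays were centred on their median, and 170 repeated rows and 4 plant rows were left out. Probes with at least 4 values, 11629 in all, entered an intercept-only fit in limma (version 3.58.1, R 4.3.3; eBayes, two-sided test of a mean of 0), with Benjamini-Hochberg adjustment over all of them at 0.05. The pool is 1 control sample, so the spread between control mice is left out, and a dye effect of a gene does not cancel. Nothing gives a batch, and whether the 6 samples were processed together is not stated. The number of arrays limits the precision. On simulated data with 200 changed probes the fit recovered 22% of 1.2-fold, 82.5% of 1.5-fold and 97.5% of 2-fold changes. A missing call therefore says little about a small difference. The simulated noise was independent between arrays, unlike arrays that share 1 pool. A gene with several probes is represented by the one with most values or, where these are equal, by the lower probe number.

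The members and lists were chosen with earlier results of these data known. The naming rule took all members, up to 4 called genes per list by size (2 as values where none passed), the 3 nearest profiles of members on all arrays with an SD above 0.158, and Clca1, Retnla and Saa3. The remaining called list genes and Fcer1g, Btk, Syk, Gata2, Mitf, Aoc1, Hnmt, Slc22a2, Mcpt2, Mcpt9, Cma2, Gzmn, Cd200r3 and Itga2 were added after their values were seen. The alternatives were arrays left uncentred, scaled or quantile-normalized, minima of 3 or 6 arrays, array weights, robust or no moderation, omission of probes 6, 18 or 24 numbers from a stronger one, and leaving out each mouse. Python 3.11.15 and matplotlib 3.10.9 drew the figures.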

Additional observations from a re-analysis of the deposited data

Results flagged for a closer look

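Of 49 genes checked for a single mouse far from the rest, 4 were picked out. Chance alone picks about 1 in 20 such groups. Cpa3 was at -0.014 in mouse 1, against 0.19 to 0.24 in mice 2 to 5. Mcpt2 was at -0.598 in the same mouse, against -0.14 to -0.10 in the other 4 with a value. Gzmm was at 0.012 in mouse 6, against -0.24 to -0.19 in the others. Csf2rb2 was at -0.024 in mouse 3, against -1.29 to -0.83 in the others.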

How the results depend on the processing

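All 5 members kept the sign of their mean under every alternative run, and Tpsb2, Tpsab1, Mcpt8 and Kit never passed the threshold. The count of members past it was 1 in place of 0 with array weights and without mouse 1, in both cases Cpa3, and 0 to 1 over single omissions. Over all probes 2832 passed as reported, 1444 with unmoderated variances and 1354 to 2999 when single mice were left out. Those at least 2-fold apart numbered 174, 78 unmoderated and 111 to 248 over single omissions. Of the list genes 31 passed, 11 unmoderated and 14 to 34 over single omissions. The difference of Mcpt8 from the mast cell proteases was -1.08 to -0.51 over single omissions and negative in each. Of the 49 genes for which alternatives were run, the signs changed for Gzmn, at 0.030 with array weights, 0.00075 without mouse 3 and -0.068 to 0.048 over single omissions, and for Itga2, at -0.025 to 0.10 over single omissions. The causes were not tested. None of the probes tested at these distances from a member's was 2-fold apart or more. No paired analysis was possible because all 6 samples form 1 group measured against 1 pool. Signal over background is unknown, so it cannot be said whether genes without values were dim or filtered for another reason.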
